A study of Homo sapiens with 9 samples.

Results

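The genes described here are the cap'n'collar transcription factors NFE2, NFE2L1, NFE2L2, NFE2L3, BACH1 and BACH2, their small MAF partners MAFF, MAFG and MAFK, and KEAP1, the adaptor that marks NFE2L2 for destruction. The 10 genes were matched by symbol in the authors' deposited table, and all 10 were found among 60605 gene identifiers. They were measured by RNA sequencing in KG-1a, a CD34-expressing human acute myeloid leukaemia line, with 3 libraries in each of 3 groups: cells wild type for PRMT2 (WT) and a pair of knockout lines of that gene, called clone 1 and clone 2 (KO clone 1 and KO clone 2 where a library is named). Both lines were made by CRISPR/Cas9, grown beside the WT cells and given no drug. Cloning of the WT cells and the origin of the replicates are not given in the sources used here, so a p-value reflects the spread between libraries, which may be technical, and not that between clones. The family was chosen by the values of NFE2L3, whose near loss on its own strand in both clones was already known, so its contrasts with WT are described without a test. The other 9 genes came with it by family membership.

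Cap'n'collar factors carry a basic leucine zipper and bind DNA as heterodimers with a small MAF protein, which has the zipper but no activation domain of its own. NFE2L2 (NRF2) drives antioxidant and detoxification genes through the antioxidant response element, NFE2L1 (NRF1) drives proteasome genes, and NFE2 drives globin and platelet genes in red cell and megakaryocyte precursors. BACH1 and BACH2 use the same partners to repress. BACH1 holds down the haem oxygenase gene HMOX1 until haem releases it, and BACH2 acts in lymphocytes.

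Depth was 28006342 to 43149410 own-strand read pairs per library. KO clone 1 replicate 1 stood apart, with a multi-mapping share of 13.33%, where the others had 3.86% to 4.51%, and results for clone 1 are given without it where this changes them. PRMT2 RNA was at 39.03 to 39.81 CPM (own-strand counts scaled to library size) in WT and 20.18 to 21.41 CPM in the 6 knockout libraries. Of the 7 progenitor markers, CD34, PTPRC and RUNX1 were abundant, at 625.6, 590.9 and 546.6 CPM in WT, and MYB and CD7 were at 275.5 and 59.5 CPM. KIT and SPI1 were low in WT, at 6.16 and 1.16 CPM. They were at 6.95 and 1.24 CPM in clone 1 and at 20.0 and 2.69 CPM in clone 2, a rise of 1.71 and 1.22 on the log2 scale in clone 2. The defining markers of other cells were mostly near 0: HBB had no count in any library and all 6 monocyte markers were under 1 CPM everywhere, while the platelet integrin ITGA2B (434.6 CPM in WT) and the T cell receptor complex chain CD3D (289.9 CPM in WT, 118.8 and 149.0 CPM in the clones) were among the exceptions.

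The sequence in front of NFE2L3 is shown because the results turn on this gene. These are the 250 bases before its start (RefSeq, GRCh38.p14, chr7:26151948-26152197, plus strand), with each CG dinucleotide in capitals.
NFE2L3: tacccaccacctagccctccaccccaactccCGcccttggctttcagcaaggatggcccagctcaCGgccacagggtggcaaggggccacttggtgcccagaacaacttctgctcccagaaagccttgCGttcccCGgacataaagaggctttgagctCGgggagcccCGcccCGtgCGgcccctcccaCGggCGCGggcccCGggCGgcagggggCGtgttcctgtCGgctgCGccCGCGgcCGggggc
The window held 19 CG dinucleotides against a median of 11 in 35116 promoter windows of the same length, and none of the letters TGACNNNGC, the core of the antioxidant response element, on either strand. RefSeq promoter windows were matched for 8 of the 10 members (not NFE2 and MAFK). Matches to that core were found for KEAP1 and MAFF among the members and for the NFE2L2 targets GCLM and TXNRD1. Over all windows 10.9% held a match, but several members have more than 1 window, so genes cannot be set against that share. The windows of the NFE2L2 targets NQO1, GCLC and SRXN1 held none, and that of HNRNPA2B1, a gene described below, held 1. All matches in KEAP1, MAFF, GCLM and TXNRD1 are shown, because KEAP1 and GCLM hold a match with the same 9 letters. Each is printed along its gene's strand, the core in capitals.
KEAP1, chr19:10502786-10502810, minus strand: ccggctctGCTTAGTCAtggtgacc
KEAP1, chr19:10502809-10502833, minus strand: ttttattgTGACACGGCgggcgccc
GCLM, chr1:93909448-93909472, minus strand: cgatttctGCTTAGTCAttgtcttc
MAFF, chr22:38201864-38201888, plus strand: tccaggggGCGGGGTCAtacggggg
TXNRD1, chr12:104215672-104215696, plus strand: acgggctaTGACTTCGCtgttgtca
TXNRD1, chr12:104286922-104286946, plus strand: ggatttctGCTTTGTCAttctgact
The capitals that begin with GC are the core on the opposite strand, seen as its reverse complement. KEAP1 and TXNRD1 hold the core on each strand, TXNRD1 in separate promoter windows. A match is a description of the letters and not a site of binding.

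NFE2L3 RNA was present in all WT libraries and nearly absent from both clones. NFE2L3 (ENSG00000050344, GRCh38 chromosome 7, 26152198 to 26187137, plus strand) encodes a membrane-anchored activator related to NFE2L1. Its own-strand counts were 322, 396 and 301 in WT replicates 1 to 3, or 8.40, 9.65 and 9.28 CPM. They were 0, 1 and 0 in clone 1 and 1, 0 and 0 in clone 2. No knockout library came near a WT library, and 2 counts were seen over all 6 of them. The ratio of WT to knockout was 840 in clone 1 (95% exact binomial interval 150 to 33200) and 1110 in clone 2 (198 to 43800), intervals that cover counting error only. As a background, 3.04% of 20655 tested genes were called lower in both clones, where a call takes an adjusted p under 0.05 together with a log2 fold change of 1 or more in size, the fold minimum. Nothing about NFE2L3 is read from that share because it was chosen for this result.

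**Figure D1:**
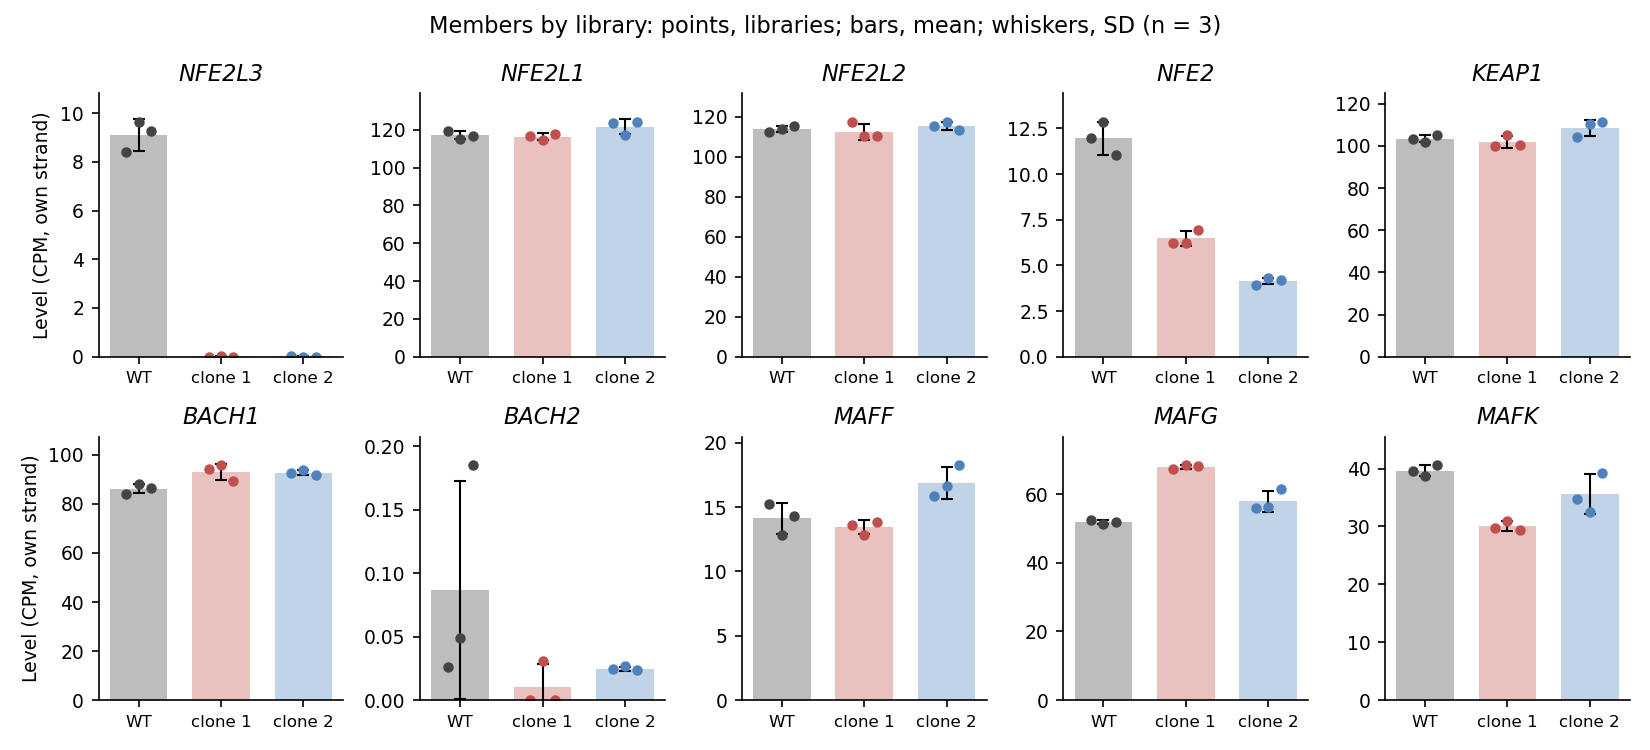
Own-strand level (CPM, linear axes that start at 0 and differ between panels) of the 10 genes in WT, clone 1 and clone 2, with points for libraries, bars for means and whiskers for the SD of 3 libraries. NFE2L3 fell from 9.11 CPM to near 0 in both clones and NFE2 was lower in both, whereas NFE2L1, NFE2L2 and KEAP1 stayed near their WT levels.

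This near loss was much smaller in the counting that ignores strand. Without regard to strand, NFE2L3 had 707, 746 and 616 counts in WT, 288, 380 and 388 in clone 1, and 498, 431 and 538 in clone 2. Scaled to the own-strand total of each library (plain CPM, without TMM), these were 18.6 ± 0.288 in WT, 11.4 ± 1.01 in clone 1 and 12.0 ± 0.526 in clone 2 (SD, n = 3 libraries each), so 61.5% and 64.3% of the WT level seemed to remain. The log2 fold change of the mean of both clones was -0.66 in this counting, which is short of the fold minimum. The authors' deposited table, whose counts were equal to the unstranded counting in all 9 libraries, lists NFE2L3 at a log2 fold change of -0.65 and marks it as not significant under a rule that also asks for a fold minimum of 1.

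The strand opposite to NFE2L3 held more pairs than its own strand in every library. It held 836, 934 and 752 counts in WT, 503, 650 and 640 in clone 1, and 770, 708 and 882 in clone 2. Only 27.8% to 29.8% of the stranded counts at NFE2L3 came from its own strand in WT, and at most 0.154% did in any knockout library. The opposite-strand level was 22.7 ± 0.711 plain CPM in WT, 19.4 ± 1.32 in clone 1 and 19.3 ± 1.03 in clone 2. No knockout library reached the WT range here either, but the clone means were still 85.8% and 85.0% of WT.

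**Figure D2:**
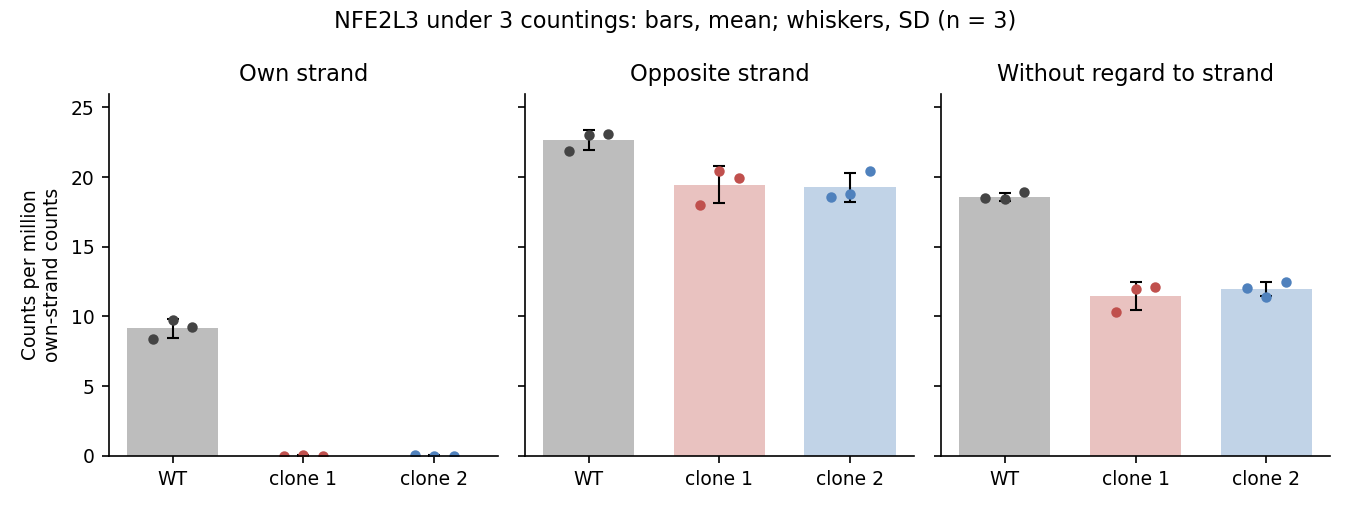
NFE2L3 counts in plain CPM of the own-strand total (linear axis from 0) on its own strand, on the opposite strand and without regard to strand, with points for libraries, bars for means and whiskers for the SD of 3 libraries. Own-strand counts were near 0 in both clones, while the opposite strand stayed at 19.4 and 19.3 against 22.7 in WT.

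The gene annotated on that opposite strand is HNRNPA2B1, which encodes an abundant RNA-binding protein of the nucleus. In GENCODE 44 its span (chromosome 7, 26171151 to 26201529, minus strand) runs over the end of NFE2L3. One of its exons, chr7:26184073-26185279, lies wholly within the last exon block of NFE2L3. The 1207 shared bases are 28.05% of the merged NFE2L3 exons, and 747 of them are coding for NFE2L3. HNRNPA2B1 was at 733.1 to 783.0 CPM in WT, 667.9 to 693.5 CPM in clone 1 and 708.0 to 754.5 CPM in clone 2, far above NFE2L3. The opposite-strand counts at NFE2L3 equalled 2.99% of the HNRNPA2B1 counts in WT, 2.86% in clone 1 and 2.65% in clone 2. When strand is ignored, a pair that overlaps exons of both genes is assigned to neither. The unstranded counts of NFE2L3 were 58.4% of its 2 stranded counts together in WT, 58.9% in clone 1 and 62.1% in clone 2. Whether the opposite-strand pairs belong to HNRNPA2B1 transcripts was not tested.

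**Figure D3:**
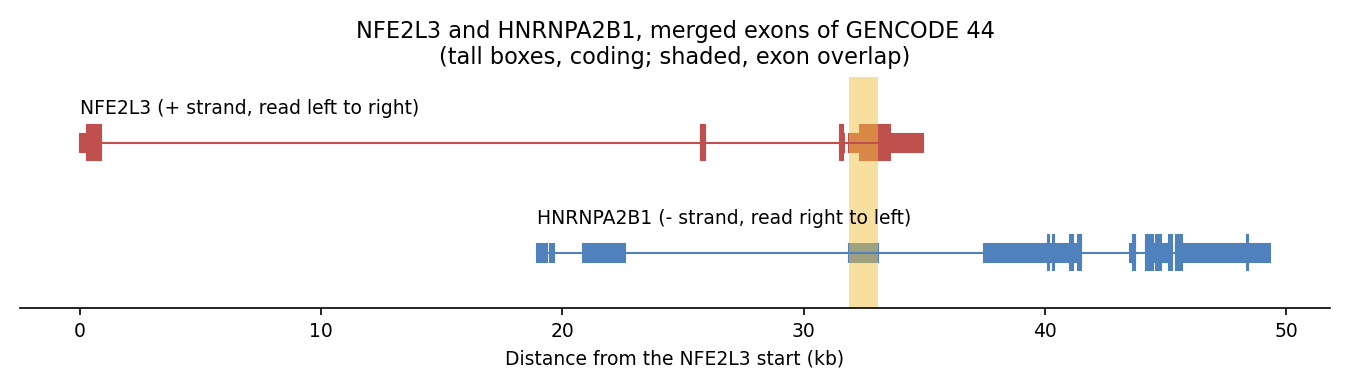
Merged exons of NFE2L3 and HNRNPA2B1 by distance from the NFE2L3 start in kilobases, with tall boxes for coding parts, thin boxes for untranslated exons and shading for the exon overlap. The shaded 1207 bases fall in the last NFE2L3 exon block, where an HNRNPA2B1 exon lies on the other strand.

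For the other members the choice of counting mattered less. NFE2, KEAP1 and BACH1 had at least 98.82% of their stranded counts on their own strand in each group, and their fold changes differed by at most 0.01 between the countings. MAFK lost the most to ambiguity: it shares 809 bases, 18.1% of its merged exons, with TMEM184A on the other strand, and its unstranded counts were 71.1% of the stranded sum in WT. Its clone 2 decrease of -0.16 came to -0.08 and missed the threshold when strand was ignored. NFE2L1 kept 84.8% in WT and overlaps a long non-coding RNA by 192 exon bases, yet its fold changes moved by no more than 0.02. NFE2L2 shares 3509 exon bases with HNRNPA3, a second gene of the hnRNP A family, on its other strand, but 97.28% of its stranded counts in WT were its own. MAFF had 82.86% on its own strand in WT, and its clone 2 rise of 0.26 came to 0.20 and missed the threshold (adjusted p = 0.0515). Over the 20228 genes tested both ways, the median absolute difference between countings was 0.006 in the mean of both clones, and 0.267% of genes differed by more than 2 on the log2 scale.

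NFE2, the founding member and a driver of platelet formation, fell in both clones and fell further in clone 2. NFE2 (ENSG00000123405, chromosome 12, 54292111 to 54301015, minus strand) was at 11.95, 12.87 and 11.03 CPM in WT. It was at 6.22, 6.24 and 6.97 CPM in clone 1 and at 3.95, 4.30 and 4.21 CPM in clone 2. The 3 groups did not overlap, and all 6 knockout libraries were under WT, as they were for 13.7% of tested genes. Clone 1 changed by -0.88 on the log2 scale (SE 0.098, adjusted p = 5.55e-10). Clone 2 changed by -1.53 (SE 0.10, adjusted p = 1.85e-16). What remained was 54.2% and 34.7% of the WT level. The direct comparison of the clones gave -0.64 (SE 0.11, adjusted p = 8.82e-06). By the fold minimum, NFE2 was called in clone 2 and in the mean of both clones (-1.21), and not in clone 1. The authors' deposited table lists it at -1.16 and as down.

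NFE2L1, NFE2L2 and KEAP1 stayed within a few percent of WT. NFE2L2, the master antioxidant regulator, was at 112.2, 113.8 and 115.2 CPM in WT, 117.2, 110.2 and 110.4 CPM in clone 1, and 115.3, 117.6 and 113.6 CPM in clone 2. These groups overlapped, and the mean log2 fold change was 0.00 with an approximate 95% interval of -0.05 to 0.06 (adjusted p = 0.949). For NFE2L1 the levels were 117.1 ± 2.11, 116.4 ± 1.74 and 121.7 ± 3.90 CPM (SD, n = 3 libraries each), a mean change of 0.02 with an interval of -0.03 to 0.08 (adjusted p = 0.569). KEAP1 was at 103.4 ± 1.51, 102.0 ± 2.89 and 108.6 ± 3.91 CPM, a mean change of 0.03 with an interval of -0.03 to 0.08 (adjusted p = 0.572). NFE2L2 and NFE2L1 are controlled mainly after translation, by degradation and by cleavage, so RNA does not measure their activity.

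BACH1 rose slightly in both clones. It was at 84.22, 88.12 and 86.37 CPM in WT, 94.09, 95.76 and 89.47 CPM in clone 1, and 92.77, 93.84 and 91.64 CPM in clone 2. All 6 knockout libraries lay above the 3 WT libraries, as they did for 11.2% of tested genes. The rise was 0.11 for clone 1 (adjusted p = 0.0134) and 0.10 for clone 2 (adjusted p = 0.0204), far from the fold minimum. It missed the threshold for both clones without WT replicate 1, for clone 1 without KO clone 1 replicate 2, and for clone 2 without KO clone 2 replicate 1 or 2. BACH2, the lymphoid repressor, was close to the limit of detection. Its counts were 1, 2 and 6 in WT, 0, 1 and 0 in clone 1, and 1 in each library of clone 2. Too low for the count filter, it was not tested. The ratio of WT to clone 1 was 7.42 (95% exact binomial interval 1.03 to 325) and that of WT to clone 2 was 3.26 (0.814 to 18.7), for counting error only, and WT replicate 3 gave 6 of the 9 WT counts.

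The small MAF genes moved in different directions. MAFG rose and was higher in clone 1 than in clone 2, with 52.35, 51.24 and 51.86 CPM in WT, 67.16, 68.41 and 68.21 CPM in clone 1, and 55.88, 56.30 and 61.43 CPM in clone 2. None of these groups overlapped, and all 6 knockout libraries lay above WT, as they did for 11.2% of tested genes. The increase in clone 1 was 0.39 (SE 0.042, adjusted p = 2.96e-10). That in clone 2 was 0.16 (SE 0.042, adjusted p = 0.00239). Without KO clone 2 replicate 3, its highest clone 2 library, the clone 2 value was 0.11 and missed the threshold.

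MAFK fell, with 39.62, 38.71 and 40.58 CPM in WT, 29.72, 30.98 and 29.45 CPM in clone 1, and 34.79, 32.53 and 39.30 CPM in clone 2. Clone 1 lay wholly below WT, whereas 1 clone 2 library reached into the WT range. Against WT, clone 1 stood at -0.40 (SE 0.056, adjusted p = 1.71e-07). Clone 2 stood at -0.16 (SE 0.054, adjusted p = 0.0253), a value that missed the threshold with DESeq2 and without WT replicate 1, WT replicate 3, KO clone 2 replicate 1 or KO clone 2 replicate 2. MAFF, which cytokines and stress induce in many cells, was at 15.26, 12.85 and 14.30 CPM in WT, 13.65, 12.82 and 13.84 CPM in clone 1, and 15.83, 16.62 and 18.26 CPM in clone 2. In clone 2 MAFF rose by 0.26 (SE 0.076, adjusted p = 0.0067). Clone 1 stood at -0.07 (adjusted p = 0.53). Leaving out WT replicate 2 or KO clone 2 replicate 3 took the clone 2 rise below the threshold, at 0.19 and 0.20.

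**Figure D4:**
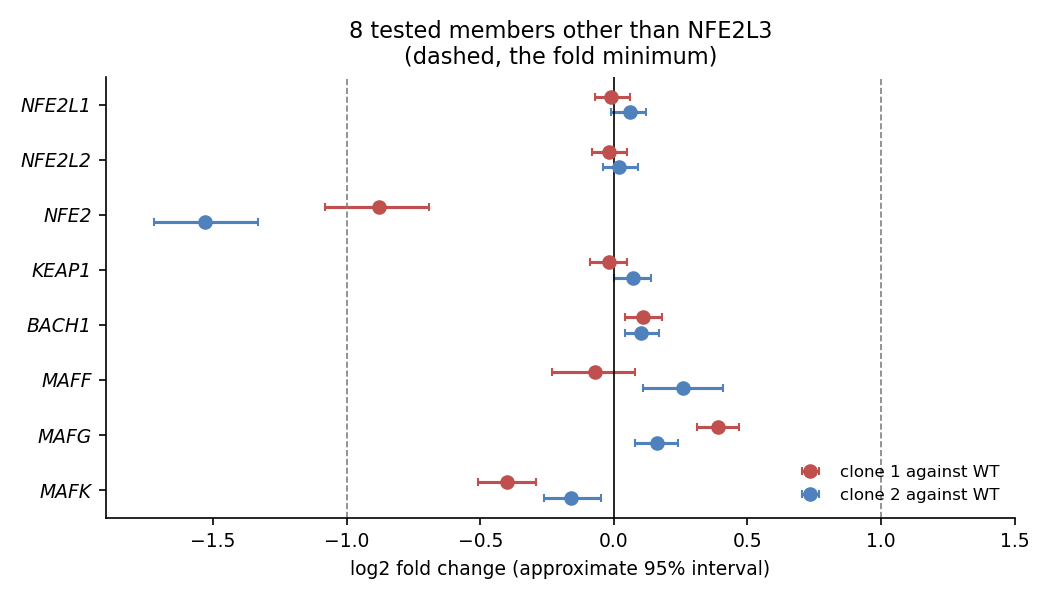
Log2 fold change against WT (linear axis) of the 8 tested genes other than NFE2L3, with approximate 95% intervals for clone 1 and clone 2 and dashed lines at the fold minimum of 1. NFE2 in clone 2, at -1.53, is the only value past the minimum, and MAFG and MAFK lie on opposite sides of 0.

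NFE2L3 is left out of the counts that follow, since its values chose the family. Of the 8 other members tested, 1, NFE2, passed the call for the mean of both clones, where 6.53% of all tested genes were called, 4.53% as lower and 2.00% as higher. In clone 1 the number called was 0 (7.58% of all genes in either direction, 4.98% lower), although 4 passed the adjusted p of edgeR's test. In clone 2 it was 1, again NFE2 (5.96% and 4.13%). At the adjusted p alone, 4 of 8 passed in the mean of both clones (35.3% of all genes), 4 in clone 1 (36.2%) and 5 in clone 2 (30.5%). Between the clones 0 were called (2.82% of all genes), and 5 passed the adjusted p alone (25.9%). The median log2 fold change of the 8 was 0.02 in the mean of both clones, against 0.00 over all genes.

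Per kilobase of merged exons, the order of levels in WT was KEAP1, NFE2L1, BACH1, MAFG, MAFK, NFE2L2, NFE2, MAFF, NFE2L3 and BACH2. In RPKM (CPM per kilobase), KEAP1 was at 28.95 ± 0.423, NFE2L1 at 19.90 ± 0.359 and BACH1 at 11.25 ± 0.254. NFE2L3, at 2.12 ± 0.149, was just under MAFF, at 2.52 ± 0.216, and their libraries did not overlap. The place of NFE2L2 depends on the length used, since its annotation holds 14975 bases of merged exons but a longest transcript of 5104 bases. Over the longest transcript it was at 22.29 ± 0.294 RPKM, the third highest, and over merged exons at 7.60 ± 0.100. MAFG and MAFK also changed places in WT. They were at 9.89 and 8.87 RPKM over merged exons and at 10.24 and 11.73 over the longest transcript. NFE2L3 went from the ninth place in WT to 0.00241 RPKM in clone 1 and 0.00188 in clone 2, beside BACH2 at the bottom.

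The antioxidant response genes did not move one way. This list of 37 NFE2L2 targets, like the lists that follow, was drawn up from general knowledge with earlier results of these data known. Of the 29 that passed the filter, 8 were higher and 8 lower at the adjusted p in the mean of both clones, against 16.4% and 18.9% of all genes. The median was 0.05, against 0.00 for all genes. In the mean of both clones 1 of the 29 was called higher and 1 lower, where 2.00% and 4.53% of all genes were. The 1 called higher was HMOX1, the haem-degrading enzyme that NFE2L2 induces and BACH1 represses. It was at 11.63, 11.87 and 11.46 CPM in WT, 24.92, 26.20 and 25.53 in clone 1, and 24.48, 25.43 and 22.70 in clone 2. All 6 knockout libraries lay above WT for HMOX1, as they did for 11.2% of tested genes. Its log2 fold change was 1.09 (SE 0.059, adjusted p = 2.99e-19).

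NQO1, a quinone reductase, rose by 0.51 in the mean of both clones (adjusted p = 6.24e-07), with 7.97 ± 0.332 CPM in WT, 13.25 ± 0.482 for clone 1 and 9.65 ± 0.511 for clone 2. The thioredoxin reductase TXNRD1 rose by 0.13 (adjusted p = 0.00081; clone 1 0.19, clone 2 0.06 with adjusted p = 0.163) and the cystine transporter SLC7A11 by 0.12 (adjusted p = 0.000703). SLC7A11 passed in clone 1, at 0.27, and was at -0.04 in clone 2, and the clones differed (adjusted p = 1.33e-10). Both glutathione synthesis genes were near 0, GCLC at 0.03 (adjusted p = 0.493) and GCLM at 0.06 (adjusted p = 0.375), and SRXN1 was at -0.36 (adjusted p = 0.422) with only 1.28 CPM in WT. Lower genes included the aldo-keto reductase AKR1C3 at -0.85, the glutathione transferases GSTP1 at -0.33 and MGST1 at -0.37, whereas the peroxiredoxin PRDX1 rose by 0.27. BLVRA, which reduces the biliverdin that HMOX1 makes, was the 1 called lower and differed between clones: it was at 2.12 ± 0.222 CPM in WT, 0.0901 ± 0.0579 in clone 1 and 2.30 ± 0.0925 in clone 2.

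**Figure D5:**
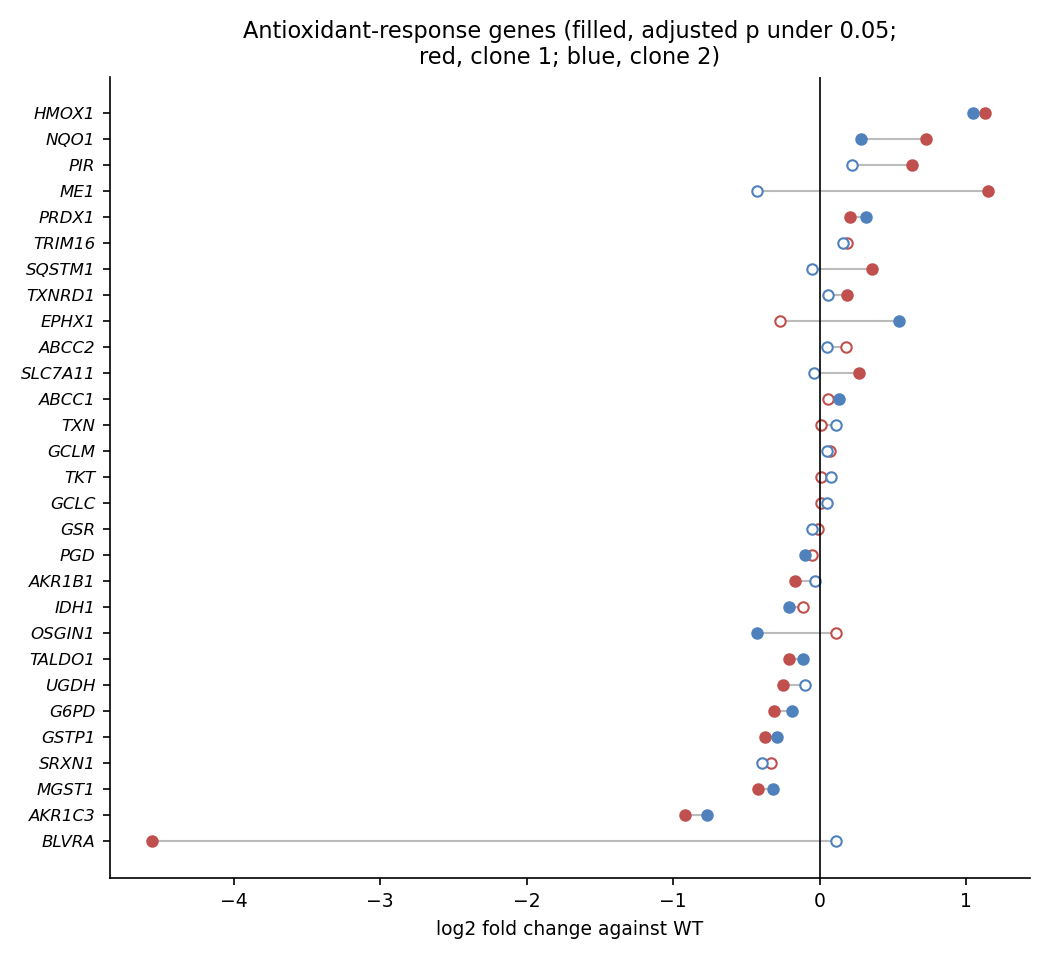
Log2 fold change against WT (linear axis) of the 29 tested antioxidant response genes, ordered by the mean of both clones, with red points for clone 1, blue points for clone 2, and filled points where the adjusted p was under 0.05. HMOX1 lies near 1 in both clones, while BLVRA lies at -4.56 in clone 1 and 0.11 in clone 2.

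Haem and iron genes were mixed as well. Of 16 tested, 3 were higher and 7 lower at the adjusted p in the mean of both clones (16.4% and 18.9% of all genes), with a median of -0.07. The lower count ranged from 5 to 7 when any 1 library was left out. Besides HMOX1, the ferritin light chain FTL rose by 0.25 and the haem synthesis enzyme UROD by 0.38. TFRC, the transferrin receptor that brings iron into the cell, fell by 0.47 (adjusted p = 4.7e-15), and the haem synthesis enzyme UROS by 0.33. SLC40A1, the iron exporter, was called lower together with BLVRA, at -1.46 and under 1 CPM in every library. With HMOX1 called higher, 3 of the 16 were called, where 6.53% of all genes were. FTH1, the ferritin heavy chain, was at 0.05 in the mean of both clones (adjusted p = 0.231). It was at 0.14 in clone 1 (adjusted p = 0.0035) and -0.03 in clone 2 (adjusted p = 0.6), and the clones differed (adjusted p = 0.000627).

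Proteasome subunits, the known targets of NFE2L1, differed mostly between the clones. In the mean of both clones 3 of 31 were higher and 4 lower (16.4% and 18.9% of all genes), with a median of -0.02. The lower count was 2 without WT replicate 1, WT replicate 3, KO clone 1 replicate 3 or KO clone 2 replicate 2. Clone 1 had 13 lower and 1 higher (18.8% and 17.4% of all genes), and clone 2 had 5 higher and 0 lower (14.4% and 16.1%). In the direct comparison, 20 of 31 were higher in clone 2 than in clone 1 and 0 were lower, with a median of 0.14, where 13.4% of all genes were higher and 12.6% lower. The counts for clone 1 and between the clones include KO clone 1 replicate 1 and were not worked out without it. None of the 31 reached the fold minimum in any comparison, where 2.82% to 7.58% of all genes were called. PSMC4, an ATPase of the base and chosen after its values were seen, was at -0.13 in clone 1 and 0.10 in clone 2. NFE2L1 itself was at 0.06 between the clones (adjusted p = 0.16).

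Genes that process or degrade these factors changed mostly by small amounts. Of these 17 genes 8 passed as higher and 4 as lower (16.4% and 18.9% of all genes), around a median of 0.10. The 1 called, where 6.53% of all genes were, was HMOX1, which this list shares with the antioxidant one. CUL3, the ubiquitin ligase scaffold that works with KEAP1, rose by 0.13 (adjusted p = 0.000147). FBXW7 rose by 0.28 and GSK3B, a kinase that marks NFE2L2 for a KEAP1-independent ligase, by 0.15. NGLY1, which deglycosylates NFE2L1 on its way to the nucleus, fell by 0.15 (adjusted p = 0.00016), and DPP3, which competes for KEAP1, fell by 0.35. SQSTM1, the autophagy receptor that sequesters KEAP1, was 0.36 higher in clone 1 and at -0.05 in clone 2.

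Among large MAF and AP-1 family partners, 5 of 13 were higher and 1 was lower at the adjusted p (16.4% and 18.9% of all genes), with a median of 0.09. The lower count was 2 without WT replicate 2. MAF was near 0 in every group. JUN fell by 1.01 (adjusted p = 5.98e-07), from 6.83 ± 1.14 CPM in WT to 3.32 ± 0.375 and 3.44 ± 0.934. It fell short of the fold minimum without WT replicate 1 (-0.88), KO clone 1 replicate 1 (-0.97) or KO clone 2 replicate 1 (-0.91), and in unstranded counts (-0.99). FOSL2 rose by 0.41, ATF4 by 0.25 and the coactivator EP300 by 0.18.

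Genes that NFE2 drives were largely silent, and those that were expressed moved both ways. Of 22 listed, 8 passed the filter, and the globins HBB, HBA2, HBD and HBE1 had no count in any library. Of the 8, 5 were higher and 2 lower at the adjusted p (16.4% and 18.9% of all genes), with a median of 0.34. The lower count was 1 without WT replicate 1, WT replicate 3, KO clone 1 replicate 3 or KO clone 2 replicate 3. ITGA2B, a platelet integrin chain, rose by 0.63 (adjusted p = 1.58e-19), from 434.6 ± 16.1 CPM to 646.8 ± 13.0 and 697.4 ± 11.3. RAB27B, a vesicle protein of platelets, rose by 0.38 and the thromboxane synthase TBXAS1 by 0.29. ITGB3, the partner chain of ITGA2B, fell by 1.39, with 10.02 CPM in WT, 1.94 in clone 1 and 7.39 in clone 2. Beside these values, 4 of the 5 megakaryocyte markers were under 1 CPM everywhere, and their summed level, nearly all ITGA2B, was 418 to 450 CPM in WT, 639 to 662 CPM in clone 1 and 688 to 710 CPM in clone 2. Its part in the result was not tested.

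Lymphoid genes linked to BACH2 had 1 member higher and 5 lower of 9 tested (16.4% and 18.9% of all genes), with a median of -0.29. BCL6, a repressor that partners with BACH2 in germinal centre B cells, fell by 1.79, from 10.29 ± 0.427 CPM to 2.48 ± 0.0827 and 3.56 ± 0.277 (adjusted p = 8.33e-20). GATA3 fell by 0.29 and PAX5 by 0.40, the latter at -0.71 in clone 1 and -0.08 in clone 2. CCND2, a cyclin, rose by 0.19. PRDM1, the plasma cell regulator that BACH2 represses, was at 0.65 (adjusted p = 0.108) and under 1 CPM in each group mean. B cell markers summed to 15.4 to 16.4 CPM in WT, 9.51 to 11.3 in clone 1 and 15.3 to 16.1 in clone 2, mostly PAX5. The 5 T cell markers summed to 337 to 355 CPM in WT, 128 to 137 in clone 1 and 162 to 174 in clone 2, nearly all CD3D and CD3E, chains of the T cell receptor complex, while CD2, CD8A and CD4 were under 1 CPM everywhere. GATA3, IL7R and BCL6 are also expressed in T lineage cells. The part of either marker group in the result was not tested.

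The genes whose pattern over the 9 libraries was most like that of NFE2L3 were FAS, RBMY2QP, SLC30A4, ADCY3 and RORB, with Pearson correlations of log2 CPM between 0.9976 and 0.9979. These 9 points share 3 groups, and 51 genes exceeded 0.99, so the order among them carries little. RORB, a nuclear receptor, was at 80.2 CPM in WT and at 9.33 and 9.29 CPM in the clones. FAS, the death receptor, was at 20.4, 6.74 and 6.97 CPM, and ADCY3 at 88.0, 41.0 and 40.7 CPM. RBMY2QP and SLC30A4 were at 24.2 and 5.31 CPM in WT and had no count in any knockout library.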

How the data were processed

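Raw counts of read pairs per gene were deposited by the authors for each of the 9 libraries, made with STAR in 2-pass mode on GRCh38 per the series text. Versions and the gene annotation are not given in the sources used here. Each file holds 3 countings: without regard to strand and for each strand. The authors' deposited table gives counts, scaled counts (signal: counts over a size factor per library), a DESeq2 Wald score, log2 fold changes, p-values and a signed fold score for both clones against WT.

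The counting of 1 strand was used because that strand held 92.03% to 92.31% of stranded counts. The 4 rows that name no gene took 70.41% to 74.07% of pairs and were left out. Genes were filtered with filterByExpr, leaving 20655, and scaled by TMM. The edgeR 4.0.16 quasi-likelihood test (R 4.3.3) was fitted to all 9 libraries, 1 coefficient per group, with Benjamini-Hochberg adjustment over all genes. All adjusted p-values are from this fit. SE is the absolute log2 fold change over the square root of F, and intervals are 1.96 SE. CPM uses TMM-scaled totals, except where plain CPM is named. A floor of 3 counts is 0.0695 to 0.107 CPM. On simulated data for the mean of both clones (20655 genes, 200 changed 2-fold), 98.5% of changed genes passed the adjusted p alone, with 9 false calls. The changed genes were drawn without the lowest expressed ones, and their median absolute log2 fold change was 0.99. Recovery by the call, which adds the fold minimum, was therefore not measured. Chi-squared per degree of freedom between replicates was 2.45 to 4.78, and 44.37 and 45.03 where KO clone 1 replicate 1 was one of the pair, so no 2 libraries were the same. Positions are from GENCODE 44, in which 60463 identifiers were found. Ratios with few counts have exact binomial intervals (SciPy 1.17.1).

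The 10 genes and all lists were chosen with earlier results of these data known. Named genes were all members, 7 fixed antioxidant response genes, up to 4 further genes per list by smallest adjusted p at 5 CPM or more, genes overlapping a member, and the 5 genes most correlated with a member called in both clones. Named list genes outside this rule, among them FTL, FTH1, BLVRA, SLC40A1, CUL3, NGLY1, SQSTM1 and PRDM1, were chosen after their values were seen. Some list genes are not reported here by name. Alternatives were unstranded counts, RLE scaling, DESeq2 1.42.0, no filter, only the groups compared, the replicate number as a block, and leaving out each library.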

Additional observations from a re-analysis of the deposited data

Results flagged for a closer look

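In 5 of the 8 tested genes other than NFE2L3 the level differed between the clones at the adjusted p, where 25.9% of all genes did. A different response to knockout cannot be told apart here from other differences between the lines. NFE2 was lower in clone 2 than in clone 1 by a log2 difference of -0.64 (adjusted p = 8.82e-06). MAFG was at -0.23 (adjusted p = 2.86e-05), MAFK at 0.24 (adjusted p = 0.000875) and MAFF at 0.33 (adjusted p = 0.000966). In these 4 genes all 3 libraries of the higher clone were above those of the lower clone. The share of all tested genes separated in this way was not worked out, so nothing is read from it. KEAP1 was at 0.09 (adjusted p = 0.0497), and missed the threshold in 8 of the 15 alternative fits. None of the 5 reached the fold minimum.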

How the results depend on the processing

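The numbers of called members in this paragraph include NFE2L3, so they are a description and not a test. Ignoring strand left 0 in place of 1 in clone 1 and 1 in place of 2 in clone 2. In the mean of both clones it left 1 in place of 2. NFE2L3 is the call lost each time, and its exons overlap those of HNRNPA2B1 on the other strand. The other settings left these numbers as they were, and NFE2 stayed between -0.94 and -0.83 in clone 1 and between -1.58 and -1.47 in clone 2 when any 1 library was left out. In own-strand counts the fitted NFE2L3 fold change ranged from -10.5 to -9.21 in the mean of both clones, since the knockout groups hold 1 count each. Small changes were less stable. BACH1 missed the threshold in 2 fits for clone 1 and 3 for clone 2 (0.09 to 0.10), and MAFK in 6 for clone 2. The replicate numbers did not pair the libraries: deviations of same-numbered libraries correlated at -0.01 to 0.01. With the replicate block the members past the adjusted p, NFE2L3 included, were 5 in clone 1, 6 in clone 2, 5 in the mean of both clones and 5 between the clones. Those called were 1, 2, 2 and 0. All were as without the block, where the 8 other tested members gave 4, 5, 4 and 5 past the adjusted p and 0, 1, 1 and 0 called. The antioxidant response list had 8 higher and 8 lower with the block. Of the 992 refitted values of single genes, 965 kept their side of the threshold, 25 fell below it, 2 rose above it and 0 reversed. Proteasome subunits lower at the adjusted p were 2 in place of 4 with DESeq2, and lower NFE2 targets were 1 in place of 2. BACH2, at 13 counts over all libraries, is limited by depth.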

Other observations

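The genes beside the cap'n'collar factors are related to one another, since members of the hnRNP A and CBX (heterochromatin protein 1) families lie next to several of them. Apart from those that overlap a member, they were chosen after the members' values were seen. CBX3, on the far side of HNRNPA2B1 from NFE2L3, was at 135.7, 138.3 and 136.5 CPM in the WT, clone 1 and clone 2 groups, a change of 0.02 (adjusted p = 0.83), and HNRNPA2B1 itself was at -0.09 (adjusted p = 0.0302). SNX10, 104.7 kb away, was at -0.06 in clone 1 and -0.36 in clone 2. Beside NFE2, COPZ1 at a gap of 0.2 kb rose by 0.14 (adjusted p = 0.00887), and HNRNPA1 at 5.0 kb and CBX5 at 12.0 kb were at 0.07 (adjusted p = 0.121) and -0.02 (adjusted p = 0.633). HNRNPA3, which overlaps NFE2L2, was at 0.06 (adjusted p = 0.124), and CBX1, 8.5 kb from NFE2L1, was at -0.01 (adjusted p = 0.891). None of these neighbours passed the fold minimum. Within the BACH1 gene, 2 annotated intronic transcripts on the same strand, BACH1-IT1 and BACH1-IT2, rose by 0.33 (adjusted p = 0.00851) and 0.34 (adjusted p = 0.0109), beside the 0.11 of BACH1. Neither passed in clone 2 alone (adjusted p = 0.0581 and 0.18). BACH1-IT3, also on that strand, was at 0.25 (adjusted p = 0.493), with 0.68 in clone 1 and -0.18 in clone 2. TMEM184A, which overlaps MAFK on the other strand, rose in clone 1, where it was at 3.27 CPM against 1.45 in WT, and was at 1.62 CPM in clone 2.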
